A study of Mus musculus with 18 samples.

Results

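Cells of mouse proximal tubules kept in primary culture for 4 days were compared with the same kind of preparation at isolation, when it had not been cultured. The comparison holds 6 of the 18 libraries of the series, which were chosen by their labels alone: 3 libraries labelled day 4, replicates A, B and C, and 3 labelled day 0, with the same 3 letters. All came from wild-type, untreated C57BL/6J females aged 6 weeks. Minced kidney was digested with collagenase and tubules were enriched on a Percoll gradient, so the starting material was an enriched fraction and not a sort by a marker. The day 4 cells had been plated on tissue culture plastic and fed with fresh medium daily for the first 3 days, without passage. Polyadenylated RNA was sequenced, and each sample is described by whole estimated counts per gene and by TPM. The labels call the replicates biological without saying whether each came from its own animal or culture, so a p-value below measures the spread between these samples only. Libraries of days 1, 2, 7 and 14 entered the shared estimate of spread and are described only where they place day 4 in the series.

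The proximal tubule reabsorbs most of the filtered phosphate, glucose, amino acids and protein through transporters and endocytic receptors of its brush border, and it pays for this with fatty acid oxidation in abundant mitochondria. It also makes glucose, breaks down amino acids and secretes drugs and toxins, a programme held up by transcription factors such as HNF4A. After injury, and when placed in culture, surviving tubule cells are known to lose this programme, flatten, switch on simple-epithelial keratins and injury genes such as Havcr1, and enter the cell cycle. A dividing cell must copy its DNA, build a mitotic spindle, and supply new membrane, for which the sterol and fatty acid pathways provide lipid.

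Day 4 was the day farthest from isolation. Levels are given below as CPM, counts-per-million of TMM-scaled library size. The mean absolute difference in log2 CPM from the day 0 mean, taken over all genes tested, was 1.588, 1.633 and 1.626 in the day 4 libraries. Over days 0, 1, 2, 4, 7 and 14 it averaged 0.2623 ± 0.015, 1.217 ± 0.079, 1.437 ± 0.0578, 1.616 ± 0.0246, 1.474 ± 0.0726 and 1.484 ± 0.0056 (SD, n = 3 each). Each day 4 library lay farther out than each library of the other days, and day 4 had the highest mean also under library sizes alone and in TPM, where days 4 and 14 were close (1.219 and 1.204). For CPM a two-sided exact permutation test of day 4 against each of days 1, 2, 7 and 14 gave p = 0.1, the smallest that 3 against 3 allows (0.1 after Benjamini-Hochberg adjustment over the 4 tests). Day 7 replicate C stood apart from its group, at 1.558 and with raised cell-cycle genes, so list counts against day 7 are also given without it. Day 7 means, list medians and single-gene tests against day 7 include it.

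Of the 4 marker genes given for this state, Mki67, Ccl20 and Lss were highest on day 4 and Acmsd was at 0 counts there. Mki67 (chromosome 7, positions 135689784 to 135716361, minus strand, GRCm38), which encodes the proliferation antigen Ki-67, had 135, 116 and 104 CPM in the day 4 libraries, against 3.74, 1.55 and 1.796 CPM in the day 0 libraries. It had 12.9, 9.14 and 70.3 CPM on day 7, so each day 4 library exceeded each library of another day. Ccl20 (chromosome 1, positions 83116766 to 83119167, plus strand), a chemokine that draws lymphocytes and dendritic cells, had 399, 555 and 559 CPM on day 4, against 1 count in the 3 day 0 libraries together, a ratio of 34320 with an exact 95% counting interval of 6160 to 1355600. Lss (chromosome 10, positions 76531588 to 76557138, plus strand), lanosterol synthase, had 237, 236 and 205 CPM on day 4, against 39.6, 38.03 and 37.9 CPM on day 0. Acmsd (chromosome 1, positions 127729413 to 127767978, plus strand), an enzyme of tryptophan breakdown, had no count in any day 4 library, against 408, 366 and 470.2 CPM on day 0.

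**Figure D1:**
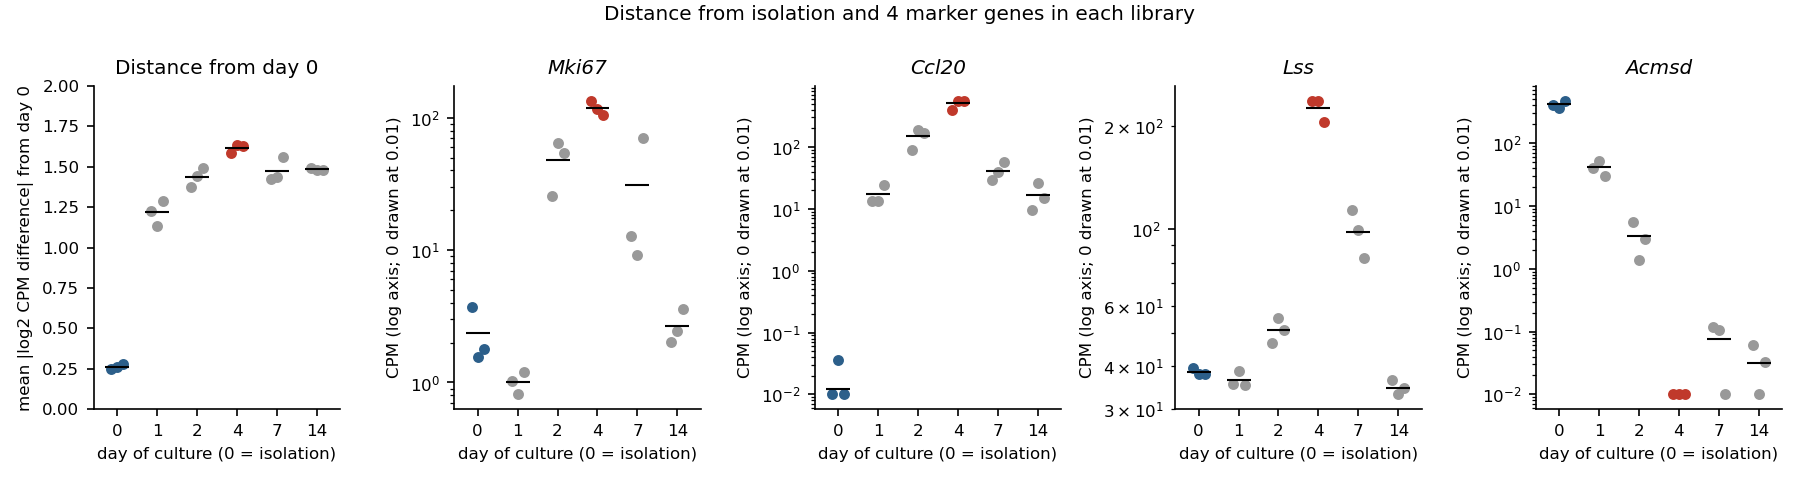
Left, the distance of each library from day 0 (mean absolute log2 CPM difference, 0 to 2) by day of culture; the other panels give the CPM of Mki67, Ccl20, Lss and Acmsd in each library on a log axis, with 0 drawn at 0.01. Points are libraries and short bars the day means: the day 4 libraries sit at 1.588 to 1.633 and are the highest for Mki67, Ccl20 and Lss, while Acmsd is at 0 in all 3.

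The 6 libraries held 25085362 to 37579097 counts. Of 18754 genes tested with edgeR's quasi-likelihood test at an adjusted p of 0.05, 38.1% (7145) rose on day 4 and 36.8% (6895) fell relative to day 0, and the median absolute log2 fold change was 1.11. These shares are the background for every list below. With library sizes alone in place of TMM scaling, 64.9% of the called genes were higher instead of 50.9%, and with limma on log2(TPM + 1) 70.9% were; the median of all genes then moved by 0.493 and 0.476 on the log2 scale, so small changes below hold only relative to TMM. Mitochondrially encoded genes took 0.466 ± 0.03% of counts on day 4, against 4.92 ± 0.91% on day 0 (SD, n = 3 each), and the 10 most abundant genes took 4.69 to 4.80%, against 12.4 to 13.2%. Counting by strand is not given in the sources used here. Agpat2, Ccnd1, Cox6c, Fosl1, Rbl2, Slc20a2, Slc5a2 and Vil1 share exon bases with a gene on the opposite strand. That gene held at least 10% as many counts on one of these days, so the values of the named genes are less certain. Genes with few counts on the day were not named here, among them E2f8 (20 counts on day 0, against 5 of Gm2788 on the opposite strand).

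Markers of other kidney cells were present at isolation and mostly lower on day 4. All 10 tested loop of Henle markers fell, summing to 22.1 to 36.8 CPM on day 4, against 3370 to 4360 CPM on day 0, and so did all 10 of the distal convoluted tubule (81.1 to 106 CPM, against 7920 to 9040 CPM) and all 12 of intercalated cells (11 to 12.3 CPM, against 802 to 1190 CPM). Umod, uromodulin of the thick ascending limb, had 1.93, 0.487 and 0.247 CPM on day 4, against 2025, 1845 and 2399 CPM on day 0. Of 12 principal cell markers 2 rose and 8 fell (633 to 745 CPM, against 1600 to 2010 CPM), of 16 endothelial markers 14 fell (60.3 to 77.9 CPM, against 308 to 386 CPM), of 12 podocyte markers 1 rose and 8 fell (332 to 461 CPM, against 624 to 808 CPM), and of 13 macrophage markers 2 rose and 9 fell (25.5 to 32.2 CPM, against 111 to 269 CPM). Both tested lymphocyte markers fell (0.065 to 0.247 CPM, against 1.4 to 2.6 CPM), and the 5 tested red blood cell markers were at 0 on day 4, against 65.9 to 99.8 CPM on day 0. Among 12 fibroblast and pericyte markers 3 rose and 5 fell (46.7 to 77.6 CPM, against 118 to 137 CPM). The sign of their median (-0.505) depended on the setting, from -1.19 to 0.0375 over all alternatives. In these bulk libraries fewer cells of a type and less RNA per cell cannot be told apart, and the part of a changed cell mixture in the results below was not tested.

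A short list of genes expressed at isolation had no count at all on day 4. Of 11269 genes with at least 5 CPM on day 0, 49 (0.435%) had no count in any day 4 library, 39 of them with a symbol other than a predicted-gene or clone name. All 49 still had a count on day 2, 29 were also at 0 on day 7, 30 on day 14, and 21 on both. Counting error sets the limit: 3 counts over the 3 day 4 libraries correspond to 0.0331 CPM, and the bounds that follow set the pooled day 0 level against that floor. Behind the 49 stands a longer tail, since 396 of the 11269 genes were below 1% of their day 0 CPM and 1107 below 10%.

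The genes lost to 0 included enzymes and transporters that mark the mature proximal tubule. Acmsd, which decides whether tryptophan is burned or turned into NAD, was at least 12360-fold lower on day 4. Haao, the enzyme just before Acmsd in the kynurenine pathway, had no day 4 count, against 184, 179 and 146 CPM on day 0, at least 5181-fold lower, and Ido2, at the head of the pathway, was lost too. Cyp2e1, a cytochrome P450 that oxidises ethanol and small toxins, stood at 197, 166 and 79.4 CPM in the day 0 libraries, so replicate C was the lowest there, and was at least 4568-fold lower on day 4. Bhmt2, which methylates homocysteine, was at least 3688-fold lower (121 ± 23.9 CPM on day 0, SD, n = 3), and Nat8, which completes mercapturic acids for excretion, at least 2759-fold (88.3 ± 22.8 CPM on day 0). A1cf, the RNA-binding partner of the apolipoprotein B editing enzyme, was at least 1310-fold lower. Slc22a28 and Slc22a19, organic anion transporters, were at least 2338-fold and 1294-fold lower, but they and Nat8f6 have near-identical neighbours among which reads may have been split. Also at 0 were Slc28a1 (nucleoside uptake), Mep1b (a brush border metalloprotease), Bbox1 (carnitine synthesis), Slco2b1 (organic anion uptake) and Hnf4aos, the transcript antisense to Hnf4a, where reads of either strand may have been counted.

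Other lost genes belonged to cells other than the proximal tubule. Insrr, an alkali-sensing receptor of intercalated cells, had 47.99, 54.8 and 67.2 CPM on day 0 and was at least 1701-fold lower on day 4. Hbb-bs, a beta globin of red blood cells, had 31.3, 32.2 and 48.7 CPM on day 0 and was at least 1108-fold lower, alongside Hbb-bt, Hba-a1 and Hba-a2, and the globin copies share reads. H2-Aa, an MHC class II chain of antigen-presenting cells, was lost as well, and Cd74, the class II invariant chain, was left at 0.454 ± 0.0743 CPM on day 4, against 117 ± 61.1 CPM on day 0 (SD, n = 3 each). Going the other way, 27 of 10955 genes with at least 5 CPM on day 4 had no count in any day 0 library.

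**Figure D2:**
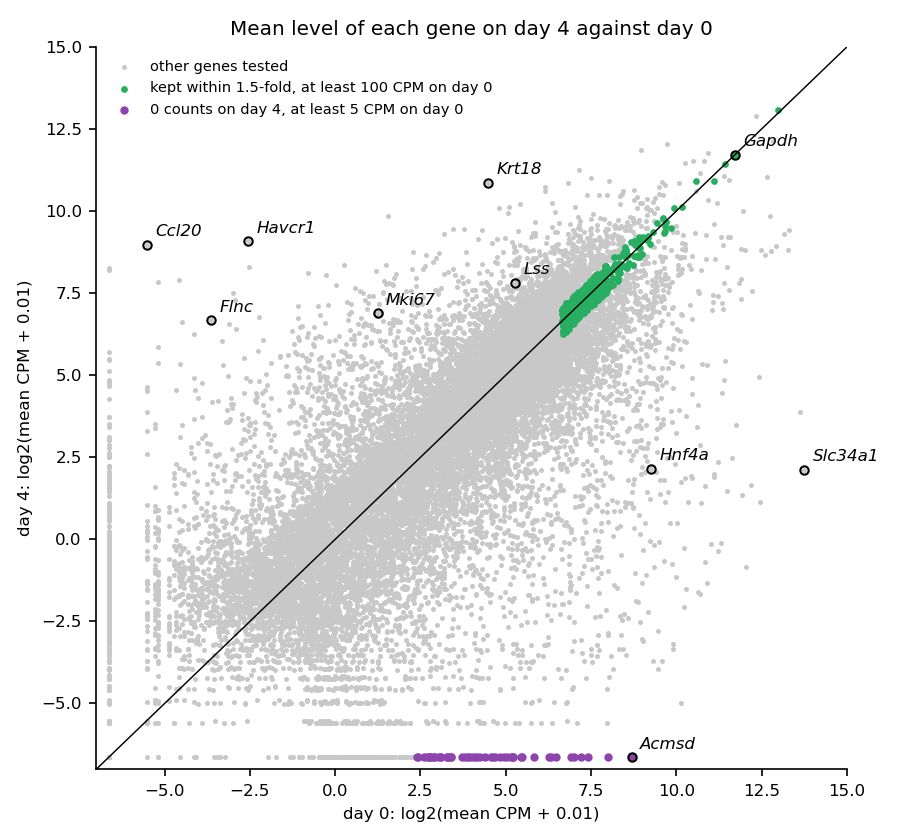
Mean level of each tested gene on day 4 (vertical) against day 0 (horizontal), both as log2(mean CPM + 0.01), with lost and kept genes in colour and 10 named genes ringed. The 49 lost genes lie on the bottom edge at 0 on day 4, and the 446 kept genes lie along the diagonal above 100 CPM on day 0.

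Reabsorption genes of the proximal tubule were among those lowest relative to isolation. Of 39 transporters tested 38 fell, and their median log2 fold change was -8.59, against 0.0763 over all genes tested. Their median log2 ratio to day 0, on mean CPM + 0.1, was -8.03, -8.55 and -8.65 on days 4, 7 and 14. Brush border, gluconeogenesis, amino acid breakdown and xenobiotic lists were also lowest on day 14 (-6.04, -7.23, -8.63 and -8.59). On day 4 they stood at -5.59, -6.13, -7.48 and -8.42. The endocytosis and tubule transcription factor lists were lowest on day 4 (-4.6 and -3.88). Slc34a1, the sodium-phosphate cotransporter of the brush border, had 5.57, 4.32 and 3.13 CPM on day 4, against 13738, 14671 and 12849 CPM on day 0, a log2 fold change of -11.62 ± 0.47 (SE; adjusted p = 6.77e-12), with TPM means of 3.02 and 5997. Slc22a6, the basolateral organic anion transporter, had 0.0316, 0.0975 and 0.0704 CPM, against 719, 879 and 719 CPM, and Slc5a2, the glucose transporter SGLT2, averaged 3.05 ± 0.867 CPM on day 4, against 1827 ± 125 CPM on day 0 (SD, n = 3 each). Slc20a2, a phosphate transporter found in most cell types, was the 1 list member that rose (95.7 ± 5.57 CPM on day 4, against 75.9 ± 3.88 CPM on day 0, adjusted p = 0.027), and it missed the threshold without day 4 replicate A (0.0817), day 0 replicate A (0.0506) or day 0 replicate B (0.0850), with DESeq2 size factors (0.0897) and in the DESeq2 Wald test (0.106). All 24 brush border enzymes and scaffold genes fell, among them Vil1, villin of the microvillus core (2.06 ± 0.704 CPM on day 4, against 199 ± 14.1 CPM on day 0).

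Of 12 genes of receptor-mediated endocytosis 9 fell, receptors included, and 3 rose. Lrp2, the receptor megalin, had 16.9, 10.5 and 10.2 CPM on day 4, against 516, 604 and 367 CPM on day 0, a log2 fold change of -5.30 ± 0.40 (SE; adjusted p = 6.37e-09), and its partner Cubn had 2.34, 1.59 and 2.36 CPM, against 244, 337 and 166 CPM. The adaptor Dab2 fell to 114 ± 16.3 CPM on day 4, against 1149 ± 117 CPM on day 0. Trafficking genes were among the 3 that rose, Gipc1 by 0.74 ± 0.08 and Ocrl by 0.39 ± 0.10 on the log2 scale (SE).

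The transcription factors of the mature tubule were lower on day 4. Of 18 tested 16 fell and none rose. Hnf4a had 5.54, 2.600 and 5.18 CPM on day 4, against 649, 627 and 568 CPM on day 0 (log2 fold change -7.11 ± 0.63, SE; adjusted p = 3.57e-08), and replicate B was the lowest of the day 4 libraries. Maf fell to 2.34 ± 0.547 CPM on day 4, against 146 ± 6.996 CPM on day 0, and Ppara, the fatty acid sensor that drives oxidation genes, to 0.811 ± 0.311 CPM, against 78.5 ± 14.5 CPM (SD, n = 3 each).

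Genes of glucose production and amino acid breakdown fell almost as a block. Of 9 gluconeogenesis genes 8 fell. Pck1, which commits oxaloacetate to glucose, had 0.411, 0.455 and 0.775 CPM on day 4, against 4197, 5423 and 3127 CPM on day 0, and G6pc, the last step, had 2 counts in the 3 day 4 libraries together, against 1131, 1365 and 903 CPM on day 0. Pck2, the mitochondrial form of the first of these enzymes, rose (64.8 ± 3.86 CPM on day 4, against 27.8 ± 0.296 CPM on day 0, adjusted p = 0.00185). Of 31 genes of amino acid breakdown 30 fell, with a median of -7.48, among them Gatm, the first step of creatine synthesis (30.9 ± 7.58 CPM on day 4, against 5514 ± 209 CPM on day 0). Of 30 xenobiotic and steroid metabolism genes 28 fell, with a median of -8.85, including Fmo1, a flavin monooxygenase (0.821 ± 0.329 and 1205 ± 128 CPM).

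Respiratory chain genes of both genomes fell. All 31 nuclear respiratory chain genes fell, with a median of -1.96, and all 13 mitochondrially encoded genes, with a median of -4.01. mt-Nd1, a complex I subunit, had 396, 494 and 468 CPM on day 4, against 5200.5, 5838 and 6064 CPM on day 0, and Cox6c, a nuclear-encoded complex IV subunit, had 120.2, 121 and 124 CPM, against 721, 728 and 708 CPM. mt-Co1, the complex IV core, had 525, 694 and 237 CPM, against 1186, 9642 and 12629 CPM, with day 0 replicate A far below B and C. Of 20 glycolysis genes 9 rose and 3 fell, and the share that rose was close to that of all genes tested (38.1%). Hk2, the hexokinase of proliferating and insulin-responsive cells, had 99.2, 99.8 and 93.7 CPM on day 4 and 2 counts over the 3 day 0 libraries, a ratio of 3340 with an exact 95% counting interval of 924 to 27585. Pkm, pyruvate kinase, had 3758 ± 163 CPM on day 4, against 496 ± 90.5 CPM on day 0, and Ldhb, the lactate dehydrogenase subunit of oxidative tissue, fell to 312 ± 16.1 CPM on day 4, against 2854 ± 37.3 CPM on day 0 (SD, n = 3 each).

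A set of abundant genes stayed near its day 0 level under TMM scaling. Of 2451 genes with at least 100 CPM on day 0, 568 were called higher, 1611 lower and 272 neither, and 446 (18.2%) had a 95% interval of the fold change that lay within 1.5-fold in either direction. Such an interval can still lie wholly above or below no change, and 218 of the 446 were also called higher or lower. Among the highest of these on day 0 were Ftl1, the ferritin light chain (8599 ± 370.2 CPM on day 4, against 8037 ± 1177 CPM on day 0), Gapdh (3306, 3350.4 and 3448 CPM, against 3323, 3243 and 3484 CPM), the chaperone Hspa8 and the translation factor Eif4g2, which was also called higher (adjusted p = 0.00572; 1940.5 ± 76.1 and 1528 ± 91.3 CPM). Hspa8 had 2772, 2858 and 2684 CPM on day 4, against 2922, 2819 and 2539.7 CPM on day 0, so the groups overlapped. Which genes count as kept rests on the scaling. With library sizes alone Ftl1, Gapdh, Hspa8 and Eif4g2 were higher on day 4, by 0.59, 0.50, 0.50 and 0.84 on the log2 scale. That setting gave 447 genes but shared 180 with the 446, and DESeq2's size factors gave 429 and shared 397. Gapdh in TPM was 4738 on day 4 and 3022 on day 0.

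**Figure D3:**
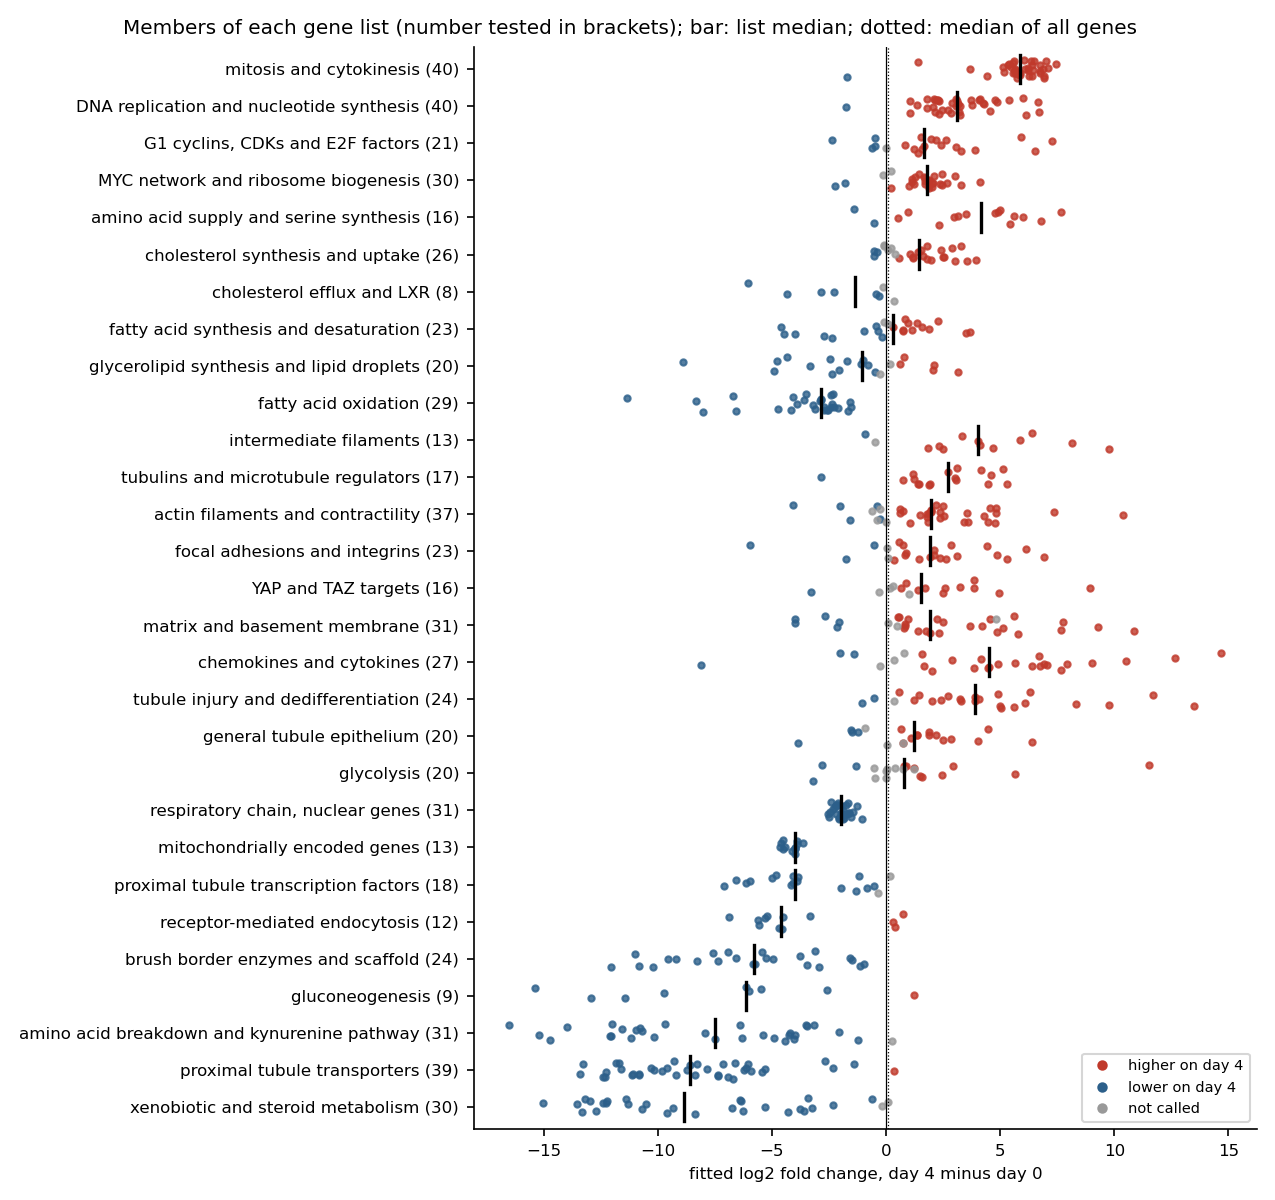
Fitted log2 fold change, day 4 minus day 0, of each tested member of tubule, growth, lipid, cytoskeleton and other lists, one row a list. The number tested is in brackets. The bar marks the list median and the dotted line the median of all genes, 0.0763. The CDK inhibitor and EGF family lists are not drawn, nor are the marker lists of other cell types. Mitosis and cytokinesis genes sit to the right with a median of 5.88, and proximal tubule transporters to the left with a median of -8.59.

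Cell division genes rose almost without exception. Of 40 genes of mitosis and cytokinesis 39 rose (38.1% of all genes tested did), with a median log2 fold change of 5.88, and of 40 genes of DNA replication and nucleotide synthesis 39 rose, with a median of 3.10. Over days 0, 1, 2, 4, 7 and 14 the median log2 ratio of the mitosis genes to day 0, taken on mean CPM + 0.1, was 0, -0.768, 4.23, 5.81, 4.06 and 1.01. Against day 2, 37 of the 40 mitosis genes were higher on day 4 (19.4% of all genes were), and against day 7, 39 were (15.9% of all genes). Without day 7 replicate C 39 were higher than on day 7 as well (4148 of the 19260 genes tested then). Of the 40 replication genes 16 were higher on day 4 than on day 2 and 39 higher than on day 7 (40 without day 7 replicate C). Their median log2 ratio to day 0 was 2.27 on day 2, 3.09 on day 4 and 1.77 on day 7.

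The promoters of 4 of these genes are shown because they hold the cell-cycle motifs common in these lists. Sequences are RefSeq promoters on GRCm38.p6, 250 bases before to 50 after the start site, 5′ to 3′ on the strand of the gene. Capitals mark TTTGAA, the cell cycle homology region, and CCAAT boxes (ATTGG where on the other strand) in Mki67 (chr7:135716330-135716629, minus strand), Plk1 (chr7:122159185-122159484, plus strand) and Ccnb2 (chr9:70421505-70421804, minus strand), and the E2F element GCGCCAAA, the other strand of TTTGGCGC, in Mcm5 (chr8:75109259-75109558, plus strand).
Mki67: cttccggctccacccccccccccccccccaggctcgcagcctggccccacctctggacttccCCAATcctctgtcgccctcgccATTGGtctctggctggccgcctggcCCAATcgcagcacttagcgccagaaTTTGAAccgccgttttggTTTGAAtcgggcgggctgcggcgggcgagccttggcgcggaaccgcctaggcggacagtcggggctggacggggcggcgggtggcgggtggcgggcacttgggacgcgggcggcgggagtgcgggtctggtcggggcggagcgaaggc
Plk1: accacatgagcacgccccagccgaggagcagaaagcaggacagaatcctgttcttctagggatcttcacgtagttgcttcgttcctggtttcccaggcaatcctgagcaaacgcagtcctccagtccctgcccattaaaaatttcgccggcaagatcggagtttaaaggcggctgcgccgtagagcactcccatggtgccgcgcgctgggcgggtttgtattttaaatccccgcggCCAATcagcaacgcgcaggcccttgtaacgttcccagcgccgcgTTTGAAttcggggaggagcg
Ccnb2: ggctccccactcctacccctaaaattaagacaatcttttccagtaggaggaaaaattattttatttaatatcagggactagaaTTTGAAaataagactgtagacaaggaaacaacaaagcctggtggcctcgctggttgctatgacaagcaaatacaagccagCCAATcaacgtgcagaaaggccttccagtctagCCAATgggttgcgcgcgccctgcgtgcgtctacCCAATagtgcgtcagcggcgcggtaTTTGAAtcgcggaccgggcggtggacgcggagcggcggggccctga
Mcm5: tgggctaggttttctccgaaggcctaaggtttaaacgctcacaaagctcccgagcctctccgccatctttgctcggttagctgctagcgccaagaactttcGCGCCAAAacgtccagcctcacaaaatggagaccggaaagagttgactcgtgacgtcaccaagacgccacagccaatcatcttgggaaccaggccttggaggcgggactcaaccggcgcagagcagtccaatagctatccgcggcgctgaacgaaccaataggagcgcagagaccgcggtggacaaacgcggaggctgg
On either strand TTTGAA was present in the promoters of 23 of the 33 mitosis genes with a RefSeq promoter (69.7%), against 20.2% of all 27025 genes with one, and CCAAT in 23 of 33 (69.7%), against 41.1%. Among the 11995 tested genes with a promoter the shares were 14.9% and 42.6%. In Ccnb2 1 copy of TTTGAA begins at base 5 after the start site, and the nearest CCAAT box begins 21 bases before the start site. TTTCCCGC or TTTGGCGC was present in 11 of 32 DNA replication genes (34.4%), against 1.8% of all and 3.13% of the tested genes with a promoter. The motifs searched do not overlap each other, and a match describes letters in this window.

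Mitotic genes had few counts at isolation. Plk1, the kinase that drives entry into and passage through mitosis, had 146, 151 and 139 CPM on day 4, against 1.51, 0.936 and 1.64 CPM on day 0, a log2 fold change of 6.76 ± 0.70 (SE; adjusted p = 2.47e-07). Ccnb2, a B-type cyclin, had 91.6, 95.3 and 89.8 CPM on day 4, against 2.698, 1.801 and 1.28 CPM on day 0. Top2a, which untangles sister chromatids, had 221, 216 and 204 CPM, against 4.12, 2.88 and 2.62 CPM, and the day 4 values lay within a narrow band. Mki67 itself rose by 5.66 ± 0.70 on the log2 scale (SE; adjusted p = 2.04e-06) over day 0 and by 1.95 ± 0.57 over day 7 (adjusted p = 0.0134), while its difference from day 2, 1.3 ± 0.56, did not pass (adjusted p = 0.0743). Pttg1, securin, which guards sister chromatid cohesion, was the single list member that fell, at 23.4, 24.7 and 26.1 CPM on day 4, against 81.4, 81.03 and 79.6 CPM on day 0.

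S phase genes had the smaller median rise of these lists. Mcm5, part of the replicative helicase, had 194, 198 and 175 CPM on day 4, against 7.76, 7.17 and 9.19 CPM on day 0 (log2 fold change 4.56 ± 0.61, SE; adjusted p = 4.59e-06), and Pcna, the sliding clamp, had 171, 175 and 158 CPM, against 35.3, 33.3 and 34.95 CPM. Rrm2, the regulated subunit of ribonucleotide reductase, had 742, 717 and 656 CPM on day 4, against 12.4, 8.896 and 11.6 CPM on day 0.

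Most genes of cell-cycle entry rose. Of 21 G1 cyclins, CDKs and E2F factors 16 rose and 4 fell. Ccnd1, cyclin D1, had 433, 487 and 403 CPM on day 4, against 103, 98.9 and 90.9 CPM on day 0, Ccne1, cyclin E1, had 44.6 ± 1.56 CPM on day 4, against 0.712 ± 0.261 CPM on day 0, and E2f8, a repressor that limits the S phase programme, 46.5 ± 3.15 and 0.316 ± 0.2604 CPM (SD, n = 3 each). Rbl2, the p130 protein of resting cells, fell to 24.3 ± 2.801 CPM on day 4, against 126 ± 12.4 CPM on day 0. Of 7 CDK inhibitors 3 rose and none fell, a share close to that of all genes tested, and with the 6 libraries alone 2 of 6 tested rose and 1 fell. Cdkn1a, p21, had 190.3, 181 and 213 CPM on day 4, against 9.99, 4.32 and 9.03 CPM on day 0, but it was lower than on day 2, where it averaged 982 ± 119.5 CPM (adjusted p = 1.02e-06). Cdkn2b, p15, had 45.6, 56.3 and 45.8 CPM on day 4, against 1.28, 0.396 and 1.18 CPM on day 0.

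**Figure D4:**
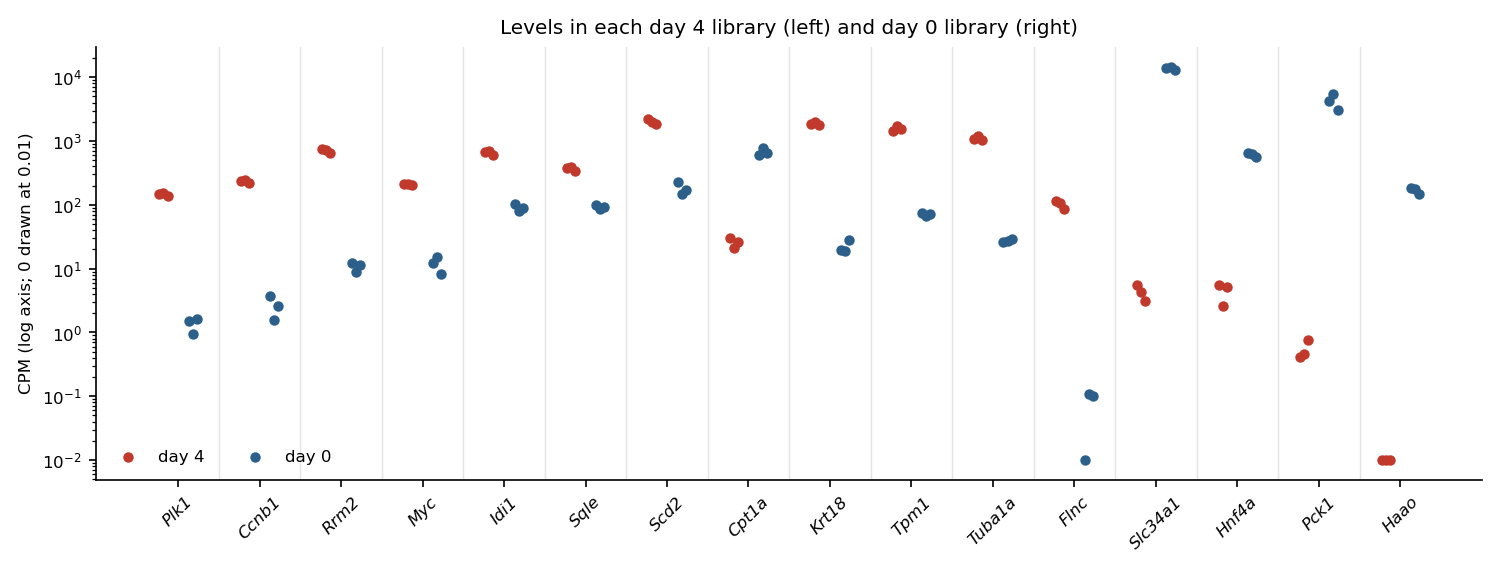
CPM on a log axis, with 0 drawn at 0.01, of named growth, lipid, cytoskeleton and proximal tubule genes in each day 4 library (left symbols) and each day 0 library (right symbols). The libraries of a day lie close together and the 2 days do not overlap for any gene drawn, with Slc34a1 at 3.13 to 5.57 CPM on day 4 and 12849 to 14671 CPM on day 0.

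Ribosome-building genes rose as well. Of 30 genes of the MYC network and ribosome biogenesis 26 rose, with a median of 1.79. The median log2 ratio of the list to day 0 was 1.87, 1.62, 1.71, 1.04 and 1.1 on days 1, 2, 4, 7 and 14, highest on day 1. Myc had 210.2, 211 and 202 CPM on day 4, against 12.5, 15.2 and 8.32 CPM on day 0 (log2 fold change 4.11 ± 0.17, SE; adjusted p = 9.06e-12), and its difference from day 2 did not pass (adjusted p = 0.186). Npm1, a nucleolar chaperone of ribosome assembly, averaged 764 ± 34.6 CPM on day 4, against 141 ± 7.297 CPM on day 0. Mxd4, a MAX partner that opposes MYC, was among the 2 that fell (7.37 ± 0.198 and 35.3 ± 1.47 CPM). Against day 2, 3 of these 30 genes were higher on day 4 and 4 lower (19.4% and 22.1% of all genes). Against day 7, 21 were higher (15.9% of all genes), or 23 without day 7 replicate C (4148 of the 19260 genes tested then).

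Amino acid supply genes rose while amino acid breakdown genes fell. Of 16 supply genes tested 14 rose, with a median of 4.14. The median log2 ratio of this list to day 0 was 4.11, 4.06 and 4.93 on days 4, 7 and 14. Slc7a11, the cystine importer that feeds glutathione synthesis, had 164, 131 and 121 CPM on day 4, against 0.521, 0.504 and 1.08 CPM on day 0. Slc7a5, the large neutral amino acid exchanger, had 247, 253 and 255 CPM, against 5.02, 4.65 and 5.903 CPM, whereas its heavy chain Slc3a2, which the tubule also pairs with other carriers, fell (275 ± 4.98 CPM on day 4, against 726 ± 18.2 CPM on day 0). Asns, asparagine synthetase, had 301 ± 22.2 and 4.75 ± 0.601 CPM, and Phgdh, the entry to serine synthesis, 587 ± 14.4 and 74.3 ± 14.5 CPM (SD, n = 3 each).

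Ligands of the EGF family drive tubule cells to divide. Of 11 ligands and receptors 7 rose and 4 fell. Their median log2 ratio to day 0 was 1.6, 1.73 and 2.14 on days 4, 7 and 14. Areg, amphiregulin, had 11.6, 10.7 and 9.51 CPM on day 4 and no count on day 0, at least 243-fold above the floor that 3 counts in the pooled day 0 libraries set, and Ereg, epiregulin, was at least 185-fold higher. Hbegf had 109.7, 125 and 96.8 CPM on day 4, against 13.1, 17.6 and 19.9 CPM on day 0. Egf, made in the kidney by distal convoluted tubule and loop cells, had 0.854, 1.04 and 0.423 CPM on day 4, against 2878, 2534 and 1808 CPM on day 0. The receptor gene Egfr rose by 0.56 ± 0.10 on the log2 scale (SE; adjusted p = 9.1e-05).

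The sterol list had its highest median of the series on day 4. Of 26 genes of cholesterol synthesis and uptake 18 rose and 3 fell against day 0, with a median log2 fold change of 1.46, and under limma on log2(TPM + 1) 24 rose and none fell. All 26 were higher than on day 2 (19.4% of all genes were), and 19 were higher than on day 7 (15.9% of all genes). Without day 7 replicate C 17 were higher than on day 7, against 4148 of the 19260 genes tested then. The median log2 ratio of the list to day 0 was 0, -0.889, -0.322, 1.46, 0.825 and -0.346 over days 0, 1, 2, 4, 7 and 14.

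The steps of the pathway did not move equally. Idi1, which isomerises isopentenyl diphosphate, had 679.9, 701 and 607 CPM on day 4, against 104, 79.2 and 89.5 CPM on day 0 (log2 fold change 2.87 ± 0.14, SE; adjusted p = 4.75e-11), and Sqle, squalene epoxidase, had 374, 386 and 343 CPM, against 101, 86.9 and 91.8 CPM. Lss, the next step, rose by 2.55 ± 0.11 (SE; adjusted p = 9.22e-12), with TPM means of 80.8 on day 4 and 9.01 on day 0. Hmgcs1, the HMG-CoA synthase, was already abundant at isolation and was not called (741, 729.9 and 672 CPM on day 4, against 566, 600.3 and 478 CPM on day 0, adjusted p = 0.0824), and Acat2, the first thiolase, had 293 ± 25.6 CPM on day 4, against 279 ± 22.7 CPM on day 0 (adjusted p = 0.713). Hmgcs1 passed without day 7 replicate C (adjusted p = 0.0182) or day 2 replicate A (0.0224), with the 6 libraries alone (0.00288), with mitochondrially encoded genes left out (0.0209) and with the replicate block (0.0476), and both genes were called higher under library sizes alone and in the TPM fits. Ebp, a late isomerase, fell by 0.53 on the log2 scale under TMM, by 0.03 and short of the threshold under library sizes alone, and its change was 0.12 under limma on log2(TPM + 1).

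Srebf2, the transcription factor of the pathway, rose by 1.18 ± 0.11 (SE; adjusted p = 1.05e-07), and Insig1, which retains it in the endoplasmic reticulum, had 176 ± 21.7 CPM on day 4, against 61.3 ± 2.78 CPM on day 0. Genes of cholesterol efflux and the LXR pathway did not rise: of 8 tested 6 fell, among them Abca1, the efflux pump (7.47, 3.83 and 5.92 CPM on day 4, against 22.7, 36.01 and 25.5 CPM on day 0), Mylip, a ubiquitin ligase induced by LXR (4.08 ± 0.199 and 29.6 ± 4.29 CPM), and Apoe (10.2 ± 1.93 and 689 ± 124 CPM). Under limma on log2(TPM + 1) 3 of the 8 rose and 4 fell.

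The Lss promoter is shown (RefSeq, GRCm38.p6, chr10:76531355-76531654, plus strand, 5′ to 3′), with its CCAAT box, read ATTGG on this strand, in capitals.
Lss: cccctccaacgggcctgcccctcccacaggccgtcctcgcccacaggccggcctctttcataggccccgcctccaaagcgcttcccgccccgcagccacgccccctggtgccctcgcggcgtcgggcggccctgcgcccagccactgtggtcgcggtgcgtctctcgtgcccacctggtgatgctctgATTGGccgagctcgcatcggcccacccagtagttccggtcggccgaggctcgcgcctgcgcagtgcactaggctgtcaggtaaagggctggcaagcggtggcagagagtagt
CCAAT was present on either strand in 16 of the 18 genes of the list with a RefSeq promoter (88.9%), against 41.1% of all genes with one. The strict sterol element TCACNCCAC was found in 1 of 18 (5.56%), Hmgcs1, against 1.44% of all.

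Fatty acid synthesis genes changed both ways, and oxidation genes fell. Of 23 genes of synthesis and desaturation 12 rose and 9 fell against day 0 (median log2 fold change 0.311, mean -0.0539), while 16 were higher than on day 2 (19.4% of all genes were). Fasn, fatty acid synthase, had 544, 484 and 419 CPM on day 4, against 40.2, 37.6 and 34.8 CPM on day 0 (log2 fold change 3.68 ± 0.15, SE; adjusted p = 5.8e-12), and Acly, which makes cytosolic acetyl-CoA, had 713 ± 53.98 CPM on day 4, against 323 ± 21.1 CPM on day 0. Scd2, a stearoyl-CoA desaturase, had 2226, 2020.3 and 1875 CPM, against 225, 146 and 170.0 CPM, and on day 2 it averaged 229 ± 71.1 CPM. All 29 fatty acid oxidation genes fell, with a median of -2.87. Cpt1a, the gate into the mitochondrion, had 30.7, 21.3 and 25.7 CPM on day 4, against 603, 786 and 662 CPM on day 0, and Acadm, the medium-chain dehydrogenase, had 50.4, 44.7 and 45.5 CPM, against 831, 828 and 837 CPM.

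Glycerolipid genes were mostly lower, with 5 of 20 higher and 13 lower. Dgat2, which makes triglyceride, fell to 16.1 ± 0.909 CPM on day 4, against 447 ± 61.9 CPM on day 0, and Gpam, the mitochondrial acyltransferase, to 31.7 ± 3.36 CPM, against 174 ± 14.4 CPM (SD, n = 3 each). Plin2, which coats lipid droplets, rose to 609 ± 16.95 CPM on day 4, against 144 ± 15.6 CPM on day 0, and Agpat2, of phosphatidic acid synthesis, to 114 ± 9.89 CPM, against 27.8 ± 3.02 CPM.

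**Figure D5:**
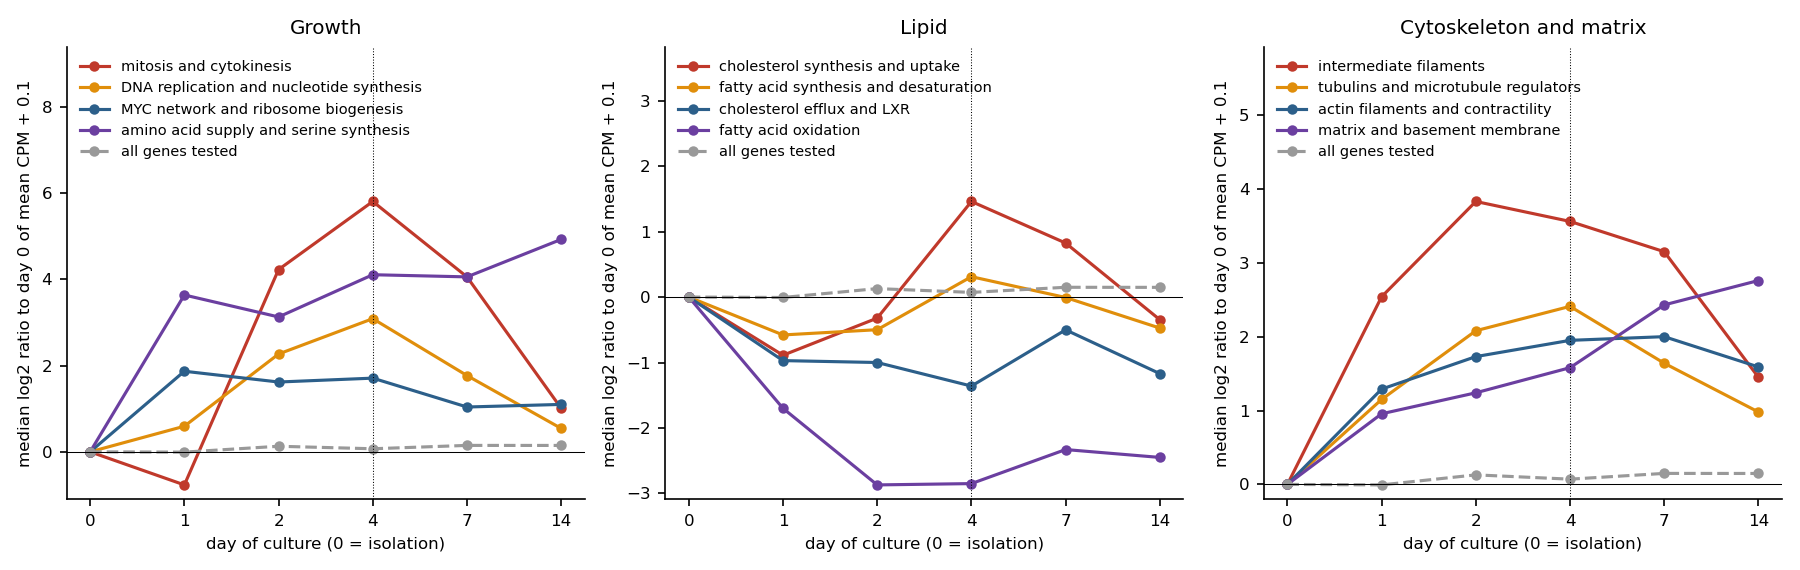
Median log2 ratio to day 0 (mean CPM + 0.1) of gene lists by day of culture, with a dotted line at day 4. Mitosis genes reach 5.81 and cholesterol synthesis genes 1.46 on day 4, both above their values on days 2 and 7, while fatty acid oxidation and cholesterol efflux lists stay below 0 on each cultured day.

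Actin, keratin and tubulin genes mostly rose. Of 37 genes of actin filaments and contractility 28 rose and 5 fell, with a median of 1.95. Their median log2 ratio to day 0 was 1.73, 1.95, 2.0 and 1.59 on days 2, 4, 7 and 14. Tpm1, a tropomyosin that stabilises filaments, had 1464, 1716 and 1544 CPM on day 4, against 74.7, 67.96 and 72.3 CPM on day 0 (log2 fold change 4.46 ± 0.19, SE; adjusted p = 8.16e-12). Actb, beta-actin, had 4278, 4463 and 4039.6 CPM, against 896, 761 and 867 CPM, and Flna, which crosslinks filaments, had 1413, 1152 and 1020.0 CPM, against 39.99, 41.6 and 45.7 CPM. Flnc, a filamin best known from muscle, had 116, 105 and 85.9 CPM on day 4, against 0, 0.108 and 0.103 CPM on day 0. Myl9, a myosin light chain of smooth muscle, fell (1.61, 1.92 and 0.881 CPM on day 4, against 22.5, 22.2 and 29.5 CPM on day 0), and so did Acta2, smooth muscle actin (8.796, 12.5 and 5.49 CPM, against 31.9, 33.5 and 45.2 CPM), though under limma on log2(TPM + 1) with no filter its adjusted p was 0.0518.

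Of 13 intermediate filament genes 11 rose, with a median of 4.04, and of 17 tubulins and microtubule regulators 16 rose, with a median of 2.71. The median log2 ratio of the intermediate filament list to day 0 was 2.54, 3.83, 3.56, 3.15 and 1.45 on days 1, 2, 4, 7 and 14. That of the tubulin list was 1.15, 2.08, 2.41, 1.64 and 0.98. Krt18, a simple-epithelial keratin, had 1827, 1993 and 1768 CPM on day 4, against 19.7, 18.8 and 28.4 CPM on day 0, and its partner Krt8 had 1941, 1895 and 1759 CPM, against 115, 111 and 115 CPM. Krt19 had 329 ± 20.6 CPM on day 4, against 1.198 ± 0.401 CPM on day 0, and Vim, the mesenchymal filament vimentin, had 189.9, 128 and 166 CPM, against 14.7, 17.97 and 16.1 CPM (adjusted p = 0.000465). Tuba1a, an alpha-tubulin, had 1068, 1203 and 1035 CPM on day 4, against 26.3, 27.4 and 29.4 CPM on day 0, and Tubb5, the main beta-tubulin of dividing cells, had 689 ± 26.2 CPM on day 4, against 19.8 ± 3.62 CPM on day 0.

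Adhesion receptors and matrix genes mostly rose. Of 23 focal adhesion and integrin genes 18 rose and 3 fell. Itga3, a laminin receptor subunit, had 976, 1032 and 934 CPM on day 4, against 34.7, 31.5 and 33.8 CPM on day 0, and Itgb1, the common beta subunit, had 1412 ± 82.5 CPM on day 4, against 328 ± 12.6 CPM on day 0. Cd44, a hyaluronan receptor, had 165, 137 and 147 CPM, against 0.852, 1.15 and 1.796 CPM, and Itgb8 fell to 3.51 ± 1.83 CPM on day 4, against 222 ± 22.8 CPM on day 0. Of 16 targets of YAP and TAZ, coactivators that respond to cell spreading, 11 rose and 1 fell, with Ankrd1 at 301, 263 and 266 CPM on day 4, against 0.805, 0.432 and 0.462 CPM on day 0. The median log2 ratio of these targets to day 0 was 1.97, 1.66, 1.53, 2.55 and 2.63 on days 1, 2, 4, 7 and 14, lowest on day 4. Of 31 matrix and basement membrane genes 23 rose and 5 fell, with a median of 1.91 (1.75 with genes at 0 set to their bounds). Lamb3, a laminin-332 chain, had 224, 221 and 199 CPM on day 4, against 0.805, 0.972 and 1.23 CPM on day 0, Fn1, fibronectin, had 142, 80.3 and 63.7 CPM, against 1.47, 1.58 and 2.26 CPM, with replicate A highest, and Col4a3 of the mature basement membrane fell to 53.99 ± 5.97 CPM on day 4, against 243 ± 45.7 CPM on day 0. Of the same list 17 of the 31 matrix genes were lower on day 4 than on day 7 and 2 higher (22.0% and 15.9% of all genes). Without day 7 replicate C 15 were lower and 12 higher, against 5387 and 4148 of the 19260 genes tested then.

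General epithelial genes mostly rose too. Of 20 genes of general tubule epithelium 13 rose and 4 fell. Their median log2 ratio to day 0 was -0.0117, 0.487, 1.22, 1.64 and 1.51 on days 1, 2, 4, 7 and 14. Cdh1, E-cadherin, had 797, 779 and 698 CPM on day 4, against 306, 268 and 314 CPM on day 0, Epcam had 331 ± 35.4 CPM on day 4, against 128 ± 25.2 CPM on day 0, and Pax8, a nephron lineage factor, rose by 0.65 ± 0.21 on the log2 scale (SE; adjusted p = 0.0118, and 0.0510 without day 0 replicate C). Cdh16, the kidney-specific cadherin, fell to 646 ± 18.2 CPM on day 4, against 1502 ± 62.1 CPM on day 0.

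Injury genes rose in 21 of 24 cases and fell in 2. Their median log2 ratio to day 0 was 3.25, 3.45, 3.89, 3.66 and 3.48 on days 1, 2, 4, 7 and 14. Havcr1, the injury marker KIM-1, had 587, 419 and 631 CPM on day 4, against 0.0473, 0.1801 and 0.257 CPM on day 0 (log2 fold change 11.69 ± 1.04, SE; adjusted p = 4.27e-08), with replicate B lowest of the day 4 libraries. Lcn2, which binds iron-carrying siderophores, had 135, 132 and 171 CPM on day 4, against 1.28, 0.864 and 3.64 CPM on day 0, and Sox9, a factor of regenerating tubule cells, had 96.7 ± 7.62 CPM on day 4, against 2.96 ± 0.651 CPM on day 0. Fosl1, an AP-1 subunit, had 56.4, 51.1 and 48.4 CPM on day 4 and no count on day 0, at least 1187-fold higher, though day 2 was higher still at 316 ± 59.3 CPM.

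Chemokines and cytokines rose in 21 of 27 cases and fell in 3, with a median of 4.52 (3.84 with genes at 0 set to their bounds). The Ccl20 promoter is shown because Ccl20 had the largest rise of the list (RefSeq, GRCm38.p6, chr1:83116516-83116815, plus strand, 5′ to 3′), with its NF-kB motif in capitals.
Ccl20: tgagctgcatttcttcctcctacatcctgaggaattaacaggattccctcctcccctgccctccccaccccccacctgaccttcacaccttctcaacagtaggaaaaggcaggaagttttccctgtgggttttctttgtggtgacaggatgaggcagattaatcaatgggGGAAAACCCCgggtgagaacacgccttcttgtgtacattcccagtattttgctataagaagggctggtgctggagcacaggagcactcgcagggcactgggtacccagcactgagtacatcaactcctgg
The NF-kB motif was present on either strand in the promoters of 7 of 18 genes of the list with a RefSeq promoter (38.9%). It was present in 6.55% of all genes with a promoter and in 8.4% of the tested ones. Csf3, the granulocyte growth factor, had 27.2, 31.6 and 26.1 CPM on day 4 and no count on day 0, at least 647-fold higher. Cxcl1, a neutrophil chemokine, had 37.7, 41.9 and 43.7 CPM, against 0.805, 2.74 and 0.257 CPM, with day 0 replicate B the highest of its group. Csf1, a macrophage growth factor, had 112 ± 6.32 CPM on day 4, against 6.33 ± 0.404 CPM on day 0, and Il1rn, the interleukin 1 receptor antagonist, 156 ± 21.8 and 0.1198 ± 0.207 CPM (SD, n = 3 each). Il1b was the reverse, with no count on day 4, against 0.663, 1.08 and 1.95 CPM on day 0, and Cx3cl1, fractalkine, fell to 23.5 ± 1.03 CPM, against 62.4 ± 2.88 CPM.

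By fold, the largest rises were of genes at or near 0 counts on day 0. Prl2c2 and Prl2c3, placental prolactin-family genes also called proliferins, had 416, 231 and 269.6 CPM and 344, 259 and 281 CPM on day 4 and no count on day 0, at least 7008-fold and 6735-fold higher, and as near-identical copies they may have shared reads. Wnt7a, a secreted growth signal, had 241, 255 and 225 CPM on day 4 and 2 counts over the 3 day 0 libraries, a ratio of 8222 with an exact 95% counting interval of 2276 to 67897. Il1f6 and Il24, epithelial cytokines, had 43.5, 46.7 and 45.97 CPM and 22.9, 26.6 and 27.9 CPM on day 4 and no count on day 0. Also among the largest rises were Gsdma (29.6, 30.8 and 26.03 CPM), Serpinb5 (29.8, 24.3 and 22.4 CPM), Cpa4 (40.2, 34.7 and 30.3 CPM), Nipal4 (29.4, 28.9 and 25.4 CPM) and Syt8 (17.2, 20.96 and 19.5 CPM), all without a count on day 0.

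A smaller set of genes was higher on day 4 than on the sampled days around it. Against day 2, 19.4% of genes were higher and 22.1% lower, and against day 7, 15.9% and 22.0%. Of all genes tested 872 (4.65%) were higher on day 4 than on each of days 0, 2 and 7, and 724 (3.86%) lower; without day 7 replicate C the counts were 1377 and 1142. Ccl20 led the first group, with 0.01201 ± 0.0208 CPM on day 0, 149 ± 52.3 CPM on day 2, 504 ± 91.3 CPM on day 4 and 41.4 ± 14.03 CPM on day 7 (SD, n = 3 each). Serpinb9b, a serpin, had 1 count on day 0 and averaged 48.3 ± 13.1 CPM on day 2, 231 ± 11.4 CPM on day 4 and 129 ± 53.8 CPM on day 7. Krt4, a keratin of stratified mucosa, had no count on day 0, 0.459 ± 0.499 CPM on day 2, 6.74, 16.7 and 15.99 CPM in the day 4 libraries, of which replicate A was the lowest, and 0.986 ± 0.645 CPM on day 7. Foxn1, a factor of thymic and skin epithelium, had no count on day 0 and averaged 4.41 ± 0.551 CPM on day 2, 11.3 ± 0.863 CPM on day 4 and 5.08 ± 1.64 CPM on day 7. Among members of the lists, Lss, Plk1, Ccnb2, Rrm2 and Areg were also higher on day 4 than on each of days 0, 2 and 7. Day 14 was not part of this selection, and Areg averaged 13.04 CPM there, against 10.6 CPM on day 4.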

How the data were processed

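Polyadenylated RNA of 18 libraries was sequenced, 3 on each of 6 days. The authors deposited estimated counts (RSEM's expected counts, given as whole numbers) and TPM values for 55421 genes; the submitters' processing notes name cutadapt 2.3, FastQC 0.11.8, STAR 2.7.8a, RSEM 1.3.3 and GRCm38, and the annotation release is not given in the sources used here. Entries for 5 reporter genes, all at 0 counts, were left out. In 878 cells of the deposited tables an estimated count of 0 stood beside a TPM above 0. Neither the day 4 nor the day 0 libraries agreed among themselves within sampling noise.

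The counts were tested with edgeR 4.0.16 (R 4.3.3; quasi-likelihood test, TMM, filterByExpr by day, 18754 genes, 1 mean per day over all 18 libraries, Benjamini-Hochberg adjusted p under 0.05). Standard errors (SE) are log2 fold changes divided by the square root of F. CPM is counts-per-million of TMM-scaled library size, with a prior count of 2 in log2 CPM and of 0.125 in fitted folds. A kept gene had a 95% interval within 1.5-fold, and a gene at 0 was set against 3 counts over 3 libraries. The exact counting intervals of ratios and the floors cover counting error only. The interval of a kept gene is taken from the edgeR fit and also covers the spread between libraries. On simulated counts for 17608 genes the test found 15, 34, 47 and 49 of 50 genes each changed 1.5-fold, 2-fold, 4-fold and 8-fold, and called 10 of 17408 unchanged ones. Only these genes changed in the simulation, as many up as down and none at the lowest levels. A shift in composition as in the data, where 38.1% of genes rose and 36.8% fell, was not simulated. Alternatives used DESeq2 1.42.0 and limma 3.58.1, the latter on TPM of at least 0.5 on average. The replicate letters showed no sign of pairing the samples. Deviations of days 4 and 0 from their means correlated at 0.036 (A), -0.023 (B) and 0.050 (C). Between unlike letters the correlations ran from -0.067 to 0.037. With 3 libraries a day this check could miss a pairing.

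The members and the 41 lists were chosen with earlier results of these data known; of their 835 entries (816 genes) 810 were tested. Genes were named by rule: 12 fixed genes, the 15 largest changes a direction at 10 CPM or more, the 12 highest lost and kept genes, in each list the 4 genes of lowest adjusted p on the side with more calls and 2 on the opposite side (any member of growth, lipid and cytoskeleton lists), and the 8 largest rises above days 0, 2 and 7. The other 20 genes in the text were chosen after their values were seen: Bbox1, Cdh1, Cubn, Cxcl1, Epcam, Fmo1, Gatm, H2-Aa, Hnf4aos, Ido2, Il1b, Lcn2, Mep1b, mt-Co1, mt-Nd1, Pax8, Slc28a1, Slc5a2, Slco2b1 and Vil1. Promoters are RefSeq's (GRCm38.p6), and gene positions and exon overlaps are from GENCODE vM21 (GRCm38), in which 18734 of the tested IDs were found. A few results are not reported here.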

Additional observations from a re-analysis of the deposited data

How the results depend on the processing

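Day 4 against day 0 gave 7145 genes higher and 6895 lower. The split moved with the scaling: library sizes alone gave 9537 and 5161, limma 9610 and 3950 on log2(TPM + 1), 9726 and 3957 on log2(TPM + 0.1), and 10028 and 5324 with no filter on TPM, with the median of all genes shifted by 0.493, 0.476, 0.626 and 0.351 on the log2 scale. Leaving out mitochondrially encoded genes gave 7747 and 6484, with a shift of 0.114, and leaving out day 2 replicate A shifted it by 0.118. DESeq2's size factors, its Wald test, no filter on counts, the 6 libraries alone and a left-out day 7 replicate C kept both counts within 1.5 times. The replicate block gave 7180 and 6905, moved no count by over 1.5 times and, among the named genes, changed the call of Hmgcs1 alone (adjusted p = 0.0476). Over single libraries left out, the counts ran from 6792 to 7833 higher and from 6596 to 7309 lower; against day 2 from 2938 to 4594 and from 2900 to 4906, and against day 7 from 2130 to 4148 and from 2860 to 5387. Leave-outs of days 2 and 7 other than day 7 replicate C, and all alternatives of the comparisons with days 2 and 7, were chosen after seeing the data.

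The mean distance of day 4 from day 0, 1.616, was 1.773 with a prior count of 0.5, 1.673 with library sizes alone, 1.219 in TPM and 1.607 to 1.63 with a library left out, and day 4 was the farthest day in each. Allowing 3 counts over the 3 day 4 libraries raised the lost genes to 104, and a minimum of 10 CPM on day 0 left 34. Over all alternatives 11 to 17 fatty acid synthesis genes were higher and 5 to 10 lower, and 8 to 13 glycolysis genes higher and 2 to 5 lower. Among named genes, Ebp turned from a fall to a small positive change in TPM, 0.12 on the log2 scale on log2(TPM + 1), log2(TPM + 0.1) and with no filter; the cause was not tested. At 25085362 or more counts a library, levels under 0.0331 CPM on day 4 or 0.0439 CPM on day 0 over 3 libraries could not be told from 0.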
